A study of Mus musculus with 6 samples.

Results

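Mt1 (ENSMUSG00000031765) and Mt2 (ENSMUSG00000031762) are the broadly expressed metallothionein genes of the mouse. Both were picked by gene name from a table of hippocampal RNA levels, in which they were 2 of 2404 genes. The other family members, Mt3 and Mt4, were not analysed here. RNA-seq was carried out on hippocampus of adult male C57BL/6 mice, with 3 CORT libraries and 3 vehicle libraries that the methods describe as biological replicates. CORT mice received corticosterone, the main glucocorticoid of rodents, at 40 mg/kg by subcutaneous injection every day for 36 days, and vehicle mice received the solvent alone (DMSO and Tween-80 in water) on the same schedule. All mice were 7 to 8 weeks old at the start, carried no transgene, and gave bulk tissue that mixes neurons, glia and vessels. In the labels the agent given to CORT mice is written as cortisone, whereas the study's methods give corticosterone. Levels are in TPM, the abundance of a transcript scaled for its length and for the library total, so that genes can be compared within a library.

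Metallothioneins are small cysteine-rich proteins that bind zinc and copper, buffer free metal in the cytosol and react with oxidants. In the brain Mt1 and Mt2 are made mostly by astrocytes, with further expression in choroid plexus, ependyma, meninges and vessels. Their transcription is driven by the zinc sensor MTF1, which binds metal response elements close to the start site, and is also raised by glucocorticoids through the glucocorticoid receptor and by interleukin-6 through STAT3.

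The promoters are shown because MTF1 acts there. The RefSeq windows hold 250 bases before the start site and 50 bases from it on, on the plus strand of GRCm38.p6, chr8:94172368-94172667 for Mt2 and chr8:94178839-94179138 for Mt1. The outermost start of the gene in GENCODE M21 lies 46 bases after this one for Mt2 and 7 bases before it for Mt1. Starts of single transcripts were not compared. Capitals mark matches to the metal response element core (TGCACNC or TGCGCNC on either strand) and, in Mt2, to the antioxidant response element core (TGACNNNGC), which is known to bind NRF2.
Mt2: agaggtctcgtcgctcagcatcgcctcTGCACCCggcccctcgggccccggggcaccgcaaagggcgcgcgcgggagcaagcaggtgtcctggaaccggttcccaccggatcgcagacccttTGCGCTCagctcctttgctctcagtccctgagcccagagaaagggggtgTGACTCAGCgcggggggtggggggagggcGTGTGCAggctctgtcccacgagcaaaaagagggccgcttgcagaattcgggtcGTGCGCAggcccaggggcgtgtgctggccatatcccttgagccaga
Mt1: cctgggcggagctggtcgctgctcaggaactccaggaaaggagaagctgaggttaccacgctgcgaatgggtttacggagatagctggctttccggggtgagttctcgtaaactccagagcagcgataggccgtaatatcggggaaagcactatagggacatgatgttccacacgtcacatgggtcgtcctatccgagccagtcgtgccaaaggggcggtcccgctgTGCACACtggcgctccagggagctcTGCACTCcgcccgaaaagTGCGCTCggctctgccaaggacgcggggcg
Mt2 held 4 metal response element cores. On the plus strand they began 223 and 128 bases before the start, and on the minus strand they lay at 50 bases before it and at base 5 after it. Mt1 held 3, all on the plus strand, at 23 bases before the start and at bases 3 and 21 after it. At least 1 such core was found in 25.7% of 32851 RefSeq promoter windows, at least 3 in 1.97% and at least 4 in 0.517%. The antioxidant core of Mt2 began 79 bases before the start, and 12.4% of windows held this motif. Neither window held the short glucocorticoid receptor motif AGAACA (19.0% of windows), the full palindromic glucocorticoid response element (0.00913%) or the E-box CACGTG (7.15%), and no matches overlapped. All positions are relative to the annotated RefSeq start, and the start site used in these hippocampi was not determined. A match is a description of letters, and a missing match says nothing of sites outside the window.

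**Figure D1:**
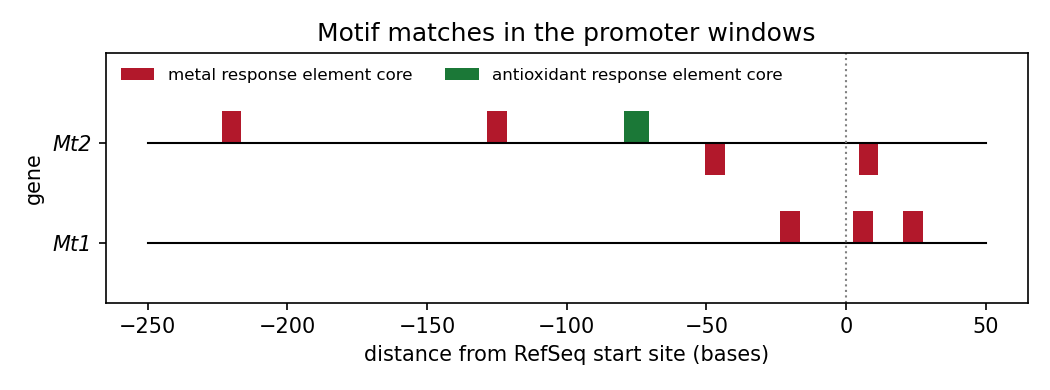
Matches to the metal response element core (red) and the antioxidant response element core (green) in the promoter windows of Mt2 and Mt1, against the distance from the RefSeq start site in bases, with plus-strand matches above each line and minus-strand matches below it. The 4 metal cores of Mt2 are spread over the window, whereas the 3 of Mt1 lie from 23 bases before the start to just after it.

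In the GENCODE M21 annotation (GRCm38) the genes lie side by side on the plus strand of chromosome 8, Mt2 at 94172664 to 94173568 and Mt1 at 94179082 to 94180327, with 5513 bases between them. Mt2 has 2 transcripts of 3 exons and Mt1 has 3 transcripts of 1 to 3 exons. A gene of the opposite strand, Gm45774, overlaps Mt2 and was not analysed here. Reads of such a pair cannot be told apart unless counting used the strand, which the sources used here do not make clear. The spliced transcripts of Mt1 and Mt2 matched at 79.2% of bases over a stretch of 192 bases.

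Both metallothioneins were higher in the hippocampus of CORT mice than of vehicle mice, and Mt2 differed by the larger factor. Mean levels differed 1.53-fold for Mt2 and 1.25-fold for Mt1. Both ranked among the most abundant genes of the table in each library. In bulk tissue, more RNA per cell and more cells of a type cannot be told apart.

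One library has to be named before the values. CORT library 3 had the highest level of each of the 4 listed choroid plexus markers out of 15 on the list. For example, Folr1, a folate receptor of choroid plexus epithelium, was at 3.73, 2.10 and 22.52 TPM in the CORT libraries, against 1.95, 1.33 and 3.20 TPM in the vehicle libraries. The 4 markers summed to 4.2 to 36.65 TPM in CORT and 2.34 to 4.65 TPM in vehicle libraries. None of them was at 0, and results for the metallothioneins are therefore also given without CORT library 3.

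Mt2 stood at 1304.05, 1546.45 and 1446.99 TPM in CORT libraries 1 to 3, against 946.00, 880.05 and 978.18 TPM in vehicle libraries 1 to 3. The groups did not overlap, since the lowest CORT library lay 326 TPM above the highest vehicle library. Means were 1432 ± 122 TPM in CORT and 935 ± 50.0 TPM in vehicle mice (SD, n = 3 each). The log2 fold change on the log2(TPM + 1) scale was 0.61 (SE 0.0681, 95% interval 0.46 to 0.767), with an adjusted p of 0.000429 by limma with Benjamini-Hochberg adjustment over 2241 genes tested. Without CORT library 3 it was 0.60 (limma adjusted p = 0.00149).

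Mt1 stood at 1434.24, 1558.03 and 1580.44 TPM in CORT libraries, against 1268.77, 1249.33 and 1151.79 TPM in vehicle libraries. Here too every CORT library lay above every vehicle library, with a smaller gap of 165 TPM. Means were 1524 ± 78.7 TPM in CORT and 1223 ± 62.7 TPM in vehicle mice (SD, n = 3 each). The log2 fold change was 0.32 (SE 0.0562, 95% interval 0.191 to 0.444), with a limma adjusted p of 0.0034. Without CORT library 3 it was 0.29 (limma adjusted p = 0.011).

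For either gene a two-sided exact permutation test of 3 against 3 libraries gave p = 0.1, the smallest value this design can give. The table lists genes that the authors called on these same libraries, so a low p in it is no independent evidence. Of the 2241 genes tested, 50.6% passed an adjusted p of 0.05, 25.8% as higher and 24.7% as lower in CORT mice, and 35.4% had every CORT library above every vehicle library, against 34.4% with every CORT library below. That both metallothioneins did so is to be read against these shares, and so are the counts of every gene list below.

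**Figure D2:**
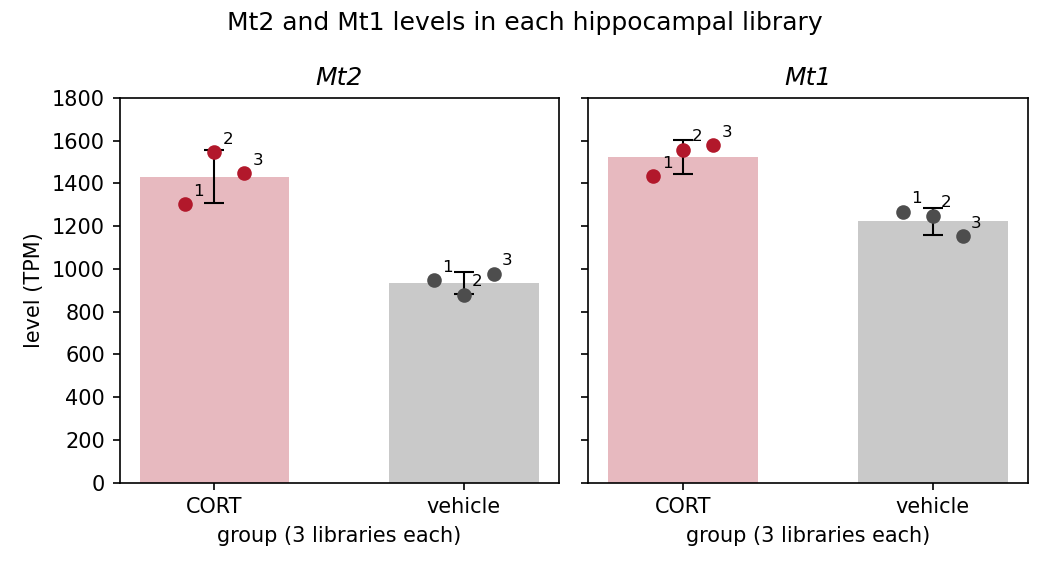
Levels of Mt2 (left panel) and Mt1 (right panel) in TPM, with 1 point per library, numbered as the columns of the table, bars for group means and error bars for the SD of 3 libraries. For both genes all 3 CORT points lie above all 3 vehicle points, and the distance is larger for Mt2 (gap 326 TPM) than for Mt1 (gap 165 TPM).

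The spread among mice was small beside these differences for both genes. The coefficient of variation of Mt2 was 8.51% in CORT and 5.35% in vehicle libraries. That of Mt1 was 5.17% in CORT and 5.12% in vehicle libraries. Within a group the 2 genes did not follow the same order. Both were lowest in CORT library 1, but Mt2 was highest in CORT library 2 and Mt1 in CORT library 3. In vehicle library 3 Mt2 was at its highest and Mt1 at its lowest. Over all 6 libraries Pearson's r of the pair was 0.926, which includes the difference between groups they share, and for deviations from the group means it was 0.279 (both a description, n = 6).

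The balance between the genes also differed. In CORT libraries 1 to 3 the ratio of Mt2 to Mt1 TPM was 0.909, 0.993 and 0.916, against 0.746, 0.704 and 0.849 in vehicle libraries. Mt1 was the more abundant transcript in every library, but by little in CORT library 2, and the groups did not overlap. Mean ratios were 0.939 ± 0.0464 in CORT and 0.766 ± 0.0746 in vehicle mice (SD, n = 3 each), a log2 difference of 0.30 (two-sided exact permutation p = 0.1, the smallest possible). The ratio is free of library scaling, and without CORT library 3 the log2 difference was 0.31. It was smallest without vehicle library 2, at 0.24, and largest without vehicle library 3, at 0.37.

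**Figure D3:**
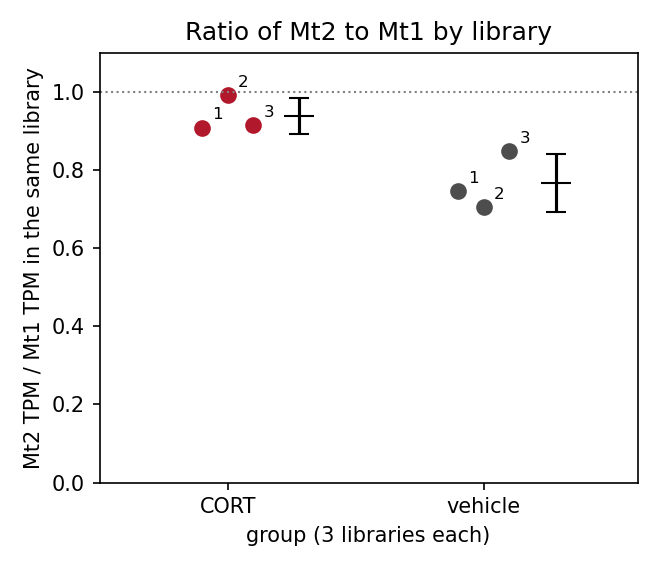
Ratio of Mt2 to Mt1 TPM within each library (points, numbered as the columns of the table), with the mean and SD of 3 libraries beside each group and a dotted line at equal levels. The CORT libraries lie between 0.909 and 0.993 and the vehicle libraries between 0.704 and 0.849.

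Together the genes made up 2738, 3104 and 3027 TPM in CORT libraries, against 2215, 2129 and 2130 TPM in vehicle libraries. This was 0.274% to 0.31% of all transcripts in CORT and 0.213% to 0.221% in vehicle libraries. By level, Mt1 ranked 23 to 27 among the listed genes in CORT libraries and 31 to 37 in vehicle libraries. Mt2 ranked 26 to 30 in CORT and 42 to 48 in vehicle libraries, a wider shift than that of Mt1. The mean gain was 498 TPM for Mt2 and 301 TPM for Mt1, ranks 15 and 16 of 2404 by gain. By log2 fold change they ranked only 152 and 479 of 2241. Both were far more abundant than most listed genes, since the median of mean levels over the listed genes was 18.7 TPM.

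**Figure D4:**
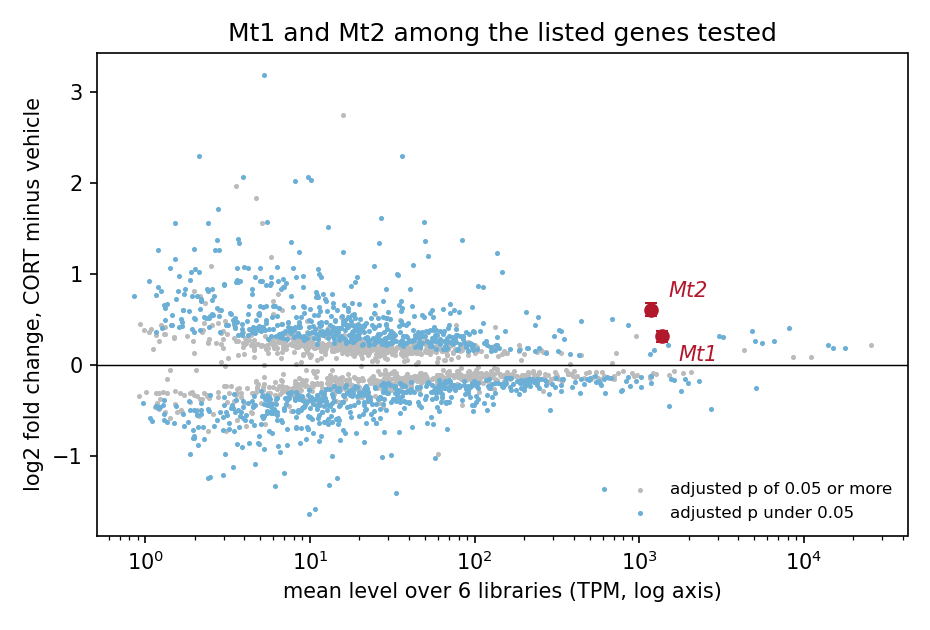
Log2 fold change (CORT minus vehicle) against mean level over 6 libraries (TPM, log axis) for the 2241 genes tested, with genes past an adjusted p of 0.05 in blue, the others in grey and Mt2 and Mt1 in red with their SE. Mt2 at 0.61 and Mt1 at 0.32 lie far to the right of most genes with a similar fold change.

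Glucocorticoid receptor targets are the list to which both genes belong. Of 33 targets on the list 29 were in the table, and 28 were higher in CORT mice, none was lower and Per1, a clock gene, did not pass (log2 fold change 0.22, limma adjusted p = 0.0509). Over all genes tested 25.8% were higher and 24.7% lower. The median log2 fold change of the list was 0.61, beside 0.05 over all genes tested. Without the metallothioneins it was 0.65, with 26 of 27 higher. This list, like the others, was chosen with earlier results of these data known. Its counts and median are therefore a description and no independent evidence. Mt1 and Mt2 had the highest and second highest mean level of the 29, but Mt2 ranked 15 and Mt1 27 by log2 fold change. The 4 targets with the smallest p all changed by a larger factor than either metallothionein. Fkbp5, a co-chaperone that restrains the receptor, was at 122.95, 126.81 and 114.70 TPM in CORT libraries, against 45.49, 44.37 and 48.86 TPM in vehicle libraries. Its log2 fold change was 1.37 (limma adjusted p = 1.11e-05). Cdkn1a, which encodes the cell cycle inhibitor p21, had a log2 fold change of 2.30, Arrdc2, an arrestin domain gene, 1.35, and Nfkbia, the inhibitor of NF-kappaB, 1.36. Cdkn1a was at 49.82 to 70.70 TPM in CORT and 9.76 to 14.21 TPM in vehicle libraries, far below the metallothioneins on the same scale.

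The STAT3 and acute phase list holds genes of interleukin-6 signalling, the cytokine input known for Mt1 and Mt2. Of its 20 genes 8 were listed, 7 were higher, none was lower and Socs3, a feedback inhibitor, did not pass (log2 fold change 0.68, limma adjusted p = 0.0758). The shares over all genes tested were 25.8% higher and 24.7% lower. The median log2 fold change of this list was 0.57. Serpina3n, a secreted protease inhibitor, had a log2 fold change of 0.57, Cebpd and Cebpb, transcription factors of the acute phase, 0.55 and 0.43, and Il6ra, the interleukin-6 receptor, 0.57. Leaving out CORT library 2 or CORT library 3 left 4 of the 8 higher. The full list shares 2 genes with the full list of glucocorticoid targets, and of these only Cebpd was in the table.

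Other listed genes of metal handling had fold changes on both sides of 0. Of 25 genes of zinc transport and sensing 6 were listed, 1 was higher, 1 was lower and 4 did not pass, with a median log2 fold change of -0.22. Such counts do not stand out from the 25.8% higher and 24.7% lower over all genes tested. Slc39a6, a zinc importer, had a log2 fold change of 0.24 (limma adjusted p = 0.0402). Slc30a3, which loads zinc into synaptic vesicles, had -0.26 (limma adjusted p = 0.0466). Neither call held without any 1 of CORT libraries 2 and 3 and vehicle libraries 1 and 2, that of Slc39a6 was also lost without CORT library 1, and quantile normalization gave 0 higher and 2 lower. With the GC correction both calls were also lost (limma adjusted p = 0.149 for Slc39a6 and 0.405 for Slc30a3), 1 gene was lower and the median was -0.08. The importers Slc39a3 and Slc39a5 missed the threshold, at -0.19 and -0.30 on the log2 scale, but Slc39a5 passed it with quantile normalization (limma adjusted p = 0.0394).

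Of 17 copper genes only Prnp, the copper-binding prion protein, was listed. It was lower by a log2 fold change of -0.13 (limma adjusted p = 0.0413), a call that held without CORT library 3 but not without any other single library. Of 17 iron and heme genes 4 were listed and 3 tested, and none passed. Without CORT library 2, 1 of them was higher, and with the GC correction or quantile normalization 1 was lower. The iron exporter Slc40a1 had a log2 fold change of -0.37 (limma adjusted p = 0.0557), the ferritin heavy chain Fth1 0.10, which turned to -0.12 with quantile normalization, and the transferrin receptor Tfrc 0.26, which was 0.04 with the GC correction. The heme carrier Hpx was at 0.15 to 0.56 TPM in CORT and 0.28 to 2.14 TPM in vehicle libraries, below the filter.

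Metallothioneins share the handling of oxidants with the glutathione and thioredoxin systems. Of 36 genes of those systems 4 were listed, with 1 higher, 1 lower and 2 that did not pass. These counts are near the shares over all genes tested, 25.8% higher and 24.7% lower. Txnip, an inhibitor of thioredoxin, was at 22.58, 22.05 and 24.94 TPM in CORT libraries, against 13.41, 11.25 and 12.15 TPM in vehicle libraries. Its log2 fold change was 0.87 (limma adjusted p = 0.000398), larger than that of Mt2. Gstm5, a glutathione transferase, had a log2 fold change of -0.24 (limma adjusted p = 0.00676). The lipid peroxidase Gpx4 had -0.12 and the thioredoxin reductase Txnrd1 -0.16, and neither passed. The sign of Gpx4 did not hold, since it was 0.04 after quantile normalization and 0.03 after the GC correction. With the GC correction, or without vehicle library 3, 2 of the 4 were lower.

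**Figure D5:**
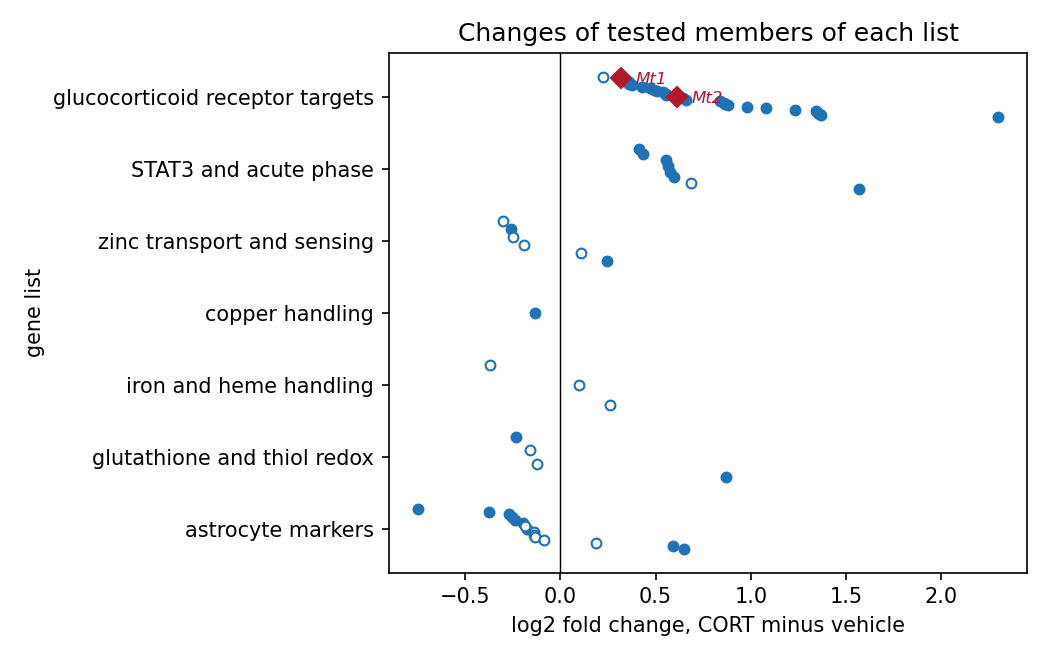
Log2 fold change (CORT minus vehicle) of each tested member of 7 gene lists, with filled points past an adjusted p of 0.05, open points not past it and diamonds for Mt1 and Mt2. The 29 glucocorticoid targets all lie right of 0, with Mt1 near the left end, while the zinc, iron and thiol lists lie on both sides. Prnp, the only copper gene tested, lies left of 0.

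Astrocytes are the main source of Mt1 and Mt2 RNA in brain, and most of their listed markers were lower in CORT mice or did not pass the test. Of 25 astrocyte markers 15 were listed and tested, with 2 higher, 7 lower, 6 that did not pass and a median log2 fold change of -0.18. Among all genes tested 25.8% were higher and 24.7% lower. The summed level of the markers was 8750 to 9222 TPM in CORT and 9931 to 10820 TPM in vehicle libraries, and none was at 0. Most of this sum was the lipid carrier Apoe, at 4470.74 to 4863.09 TPM in CORT and 5347.60 to 5769.65 TPM in vehicle libraries. The sum therefore mainly follows 1 gene and gives no direction for the list. The 2 that were higher were F3, the tissue factor gene, at 0.65, and Ppp1r3c, a glycogen-targeting phosphatase subunit, at 0.59 on the log2 scale. Sox9, a transcription factor of astrocytes, had -0.75 and Apoe -0.25. The call of Apoe was lost with a correction for GC content (limma adjusted p = 0.0777).

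Other cells known to contain metallothioneins had few markers among the listed genes. The shares of all genes tested, for comparison, were 25.8% higher and 24.7% lower. Of 18 endothelial markers 10 were tested, with 1 higher, 7 lower, 2 that did not pass and a median log2 fold change of -0.33. Their sum was 898.5 to 979.3 TPM in CORT and 1064 to 1152 TPM in vehicle libraries. Most of this sum was Bsg, a membrane glycoprotein, at 657.82 to 738.12 TPM in CORT and 828.88 to 900.47 TPM in vehicle libraries. It therefore mainly follows 1 gene and gives no direction for the list. Cldn5, a tight junction protein, was at 18.24, 19.02 and 15.84 TPM in CORT libraries, against 52.16, 50.99 and 42.94 TPM in vehicle libraries. Its log2 fold change was -1.41 (limma adjusted p = 5.68e-05), the list's largest. Bsg had -0.28 and Kdr, a VEGF receptor, -0.60, whereas Slc2a1, the glucose transporter of the blood-brain barrier, had 0.87. Of 12 pericyte and smooth muscle markers 4 were tested. Vtn was lower (-0.40) and Rgs5 higher (0.27), while Cspg4 (-0.25) and Pdgfrb (-0.23) did not pass. The ependymal list was represented by 1 of 10 markers, Pltp, at a log2 fold change of -0.27. Of 10 meningeal fibroblast markers 3 were listed and 2 tested, Col1a1 (-0.49) and Slc6a13 (-0.72), and neither passed.

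Cells not known as main sources of Mt1 and Mt2 also had markers in the table, where 25.8% of all genes tested were higher and 24.7% lower. Of 15 microglial markers 8 were tested, with 6 lower, 1 higher and a sum of 129.5 to 163.3 TPM in CORT and 197.2 to 217.1 TPM in vehicle libraries. The smallest p belonged to Fcrls (-1.31), the fractalkine receptor Cx3cr1 (-1.25), Gpr34 (-1.21) and the purine receptor P2ry12 (-0.84), given as log2 fold changes. Of 15 oligodendrocyte markers 4 were tested. Sox10 (-1.01) and Gjc3 (-0.44) were lower, the myelin gene Mobp was higher (0.51) and Ugt8a (0.17) did not pass. Of 12 neuron markers 1 was listed, Syp, a synaptic vesicle gene, at -0.16. All 8 listed markers of hippocampal regions were detected in every library, at a sum of 603 to 627.2 TPM in CORT and 615.5 to 688.1 TPM in vehicle libraries. Wfs1 (-0.42) and C1ql2 (-0.38) were lower, Bok was higher (0.22) and C1ql3 (0.17) did not pass. Counts over the astrocyte and endothelial lists, and that of lower microglial markers, stayed within 1.5 times in every alternative. The calls of Cldn5, Bsg, Kdr, Slc2a1, Vtn, Sox10, Wfs1 and the 4 microglial genes named held in all 12 alternatives, whereas those of Rgs5, Pltp, Mobp, Gjc3, Syp and Bok were each lost without at least 1 single library, and that of C1ql2 with the GC correction. The part of these shifts in the levels of Mt1 and Mt2 was not tested.

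The genes whose levels over the 6 libraries were most like those of Mt1 or Mt2 were named by Pearson's r of log2(TPM + 1) among 1902 other genes with a mean of at least 5 TPM. For Mt1 these were Cebpd (r = 0.978), Ampd3, an AMP deaminase, Tsc22d1, Gadd45g and Xdh, the xanthine dehydrogenase, all with r of at least 0.971. For Mt2 they were Lrrc8c (r = 0.995), a subunit of volume-regulated anion channels, Rhob, a small GTPase and glucocorticoid target, Smim3, Rin2 and Dapk1, all with r of at least 0.987. The lists had no gene in common. Genes with r over 0.95 numbered 101 for Mt2 and 15 for Mt1. These values largely restate the group difference, since all listed genes were chosen for one.

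Deviations from the group means gave other names. Mt1 deviated most like Cyth4 (r = 0.998), Cst3, Thop1, Ypel3 and Cbr3, and Mt2 most like S100a16 (r = 0.998), Mical2, Marchf8, Akt2 and Lypd1. With 6 libraries in 2 groups such values are a description only. Cst3, the secreted protease inhibitor cystatin C, is an example of a gene that varied with Mt1 among mice of a group while its group difference ran the other way, at a log2 fold change of -0.48 (limma adjusted p = 0.00123).

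Base composition moved with the fold changes in this table, in the direction opposite to both members. Their longest transcripts have a GC content of 55.6% (Mt2) and 52.9% (Mt1). For Mt1 this is a transcript of 1085 bases, whereas the spliced transcript matched to Mt2 above has 549 bases. Among 490 other genes within 2 percentage points of Mt2 only 29.6% had a positive fold change (median -0.16), and among 437 near Mt1 40.5% did (median -0.12). Over all tested genes it was 50.4%. After a spline on GC content was removed from each library, the log2 fold change was 0.67 for Mt2 (limma adjusted p = 0.00042) and 0.32 for Mt1 (limma adjusted p = 0.0092).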

How the data were processed

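Total RNA of hippocampus (TruSeq libraries, paired-end reads) was sequenced from 3 CORT and 3 vehicle mice. Reads were trimmed by the authors with fastp. HISAT2, StringTie, RSEM and the build GRCm39 appear in the submitters' processing notes, with versions not given in the sources used here. Values in the deposited table are the authors' TPM per library, the unit being that of the methods. It also holds the authors' fold change as a ratio, its log2 value and a p-value of their DESeq2 comparison; the deposited log2, ratio and p-value columns entered no result. All 2404 listed genes have a deposited p-value under 0.05, so no false discovery rate beyond this table is given. TPM keeps no depth, so the depth of each library and the precision it gives are unknown. The columns named WT were taken as the vehicle group, the only other group of the design, and library numbers follow the columns, which cannot be tied to sample titles.

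limma 3.58.1 (trend and robust options, R 4.3.3) was fitted to log2(TPM + 1) of 2241 genes with at least 1 TPM in at least 3 libraries, with Benjamini-Hochberg adjustment and a threshold of 0.05. A change is called where it passed. Exact permutation tests used scipy 1.17.1, the transcript match BLAST 2.17.0, and tables and figures Python 3.11.15, pandas 2.3.3, numpy 2.4.6 and matplotlib 3.10.9. The fit was first tested on simulated data. GC content is that of the longest GENCODE M21 transcript, found for 99.9% of listed genes. Promoter windows of both genes were matched by symbol in RefSeq (GRCm38.p6); coordinates are of that build, not of GRCm39.

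The members, the 17 gene lists and the tests were chosen with earlier results of these data known. Named are Mt1 and Mt2, of each list the 4 genes of smallest p, and the 5 genes most like each member by each of both measures. Per1, Socs3, Hpx and the chromosomal neighbours were chosen after their values were seen. Lists are described by counts and medians with no test. Alternatives were other pseudocounts, no filter, quantile normalization, a GC correction, limma without trend and robust options, and leaving out each library.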

Additional observations from a re-analysis of the deposited data

How the results depend on the processing

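Mt1 and Mt2 kept their direction and their call in all 12 alternatives each. With 1 library left out in turn the log2 fold change ranged from 0.556 to 0.679 for Mt2 (limma adjusted p 0.000203 to 0.0029) and from 0.274 to 0.36 for Mt1 (limma adjusted p 0.0028 to 0.0145). The highest adjusted p came from limma without trend and robust options, 0.00333 for Mt2 and 0.0175 for Mt1. Quantile normalization gave a log2 fold change of 0.42 for Mt1 and 0.61 for Mt2. The log2 difference of the Mt2 to Mt1 ratio ranged from 0.238 to 0.373 with 1 library left out, where the exact permutation test cannot go below 0.2. The number of genes called, 1133, ranged from 620 to 1187 with 1 library left out. It was 715, 644 and 717 without CORT library 1, 2 or 3 and 620 without vehicle library 1, and 895 with the GC correction, and no setting other than leaving out a library moved it by over 1.5 times. Of 54 other named genes that were called, 34 kept the call in every alternative and 20 lost it in at least 1; these checks and those of list counts were chosen after seeing the data. Among named genes that did not pass, the log2 fold change changed sign, to -0.125 for Fth1 and 0.038 for Gpx4 with quantile normalization, and to 0.0258 for Gpx4, 0.0277 for Thop1 and -0.0618 for Ugt8a with the GC correction. With 1 library left out Ugt8a ranged from -0.0171 (without vehicle library 2) to 0.324. No paired analysis was possible because the sample titles of the groups share only 1 replicate number and the table's columns are not tied to the titles. The 3 mice a group, a preselected table and the unknown read depth limit all values.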

Other observations

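The genes next to the metallothioneins were looked up in their order along chromosome 8. Of the 10 protein-coding genes before Mt2, 0 were in the table, and of the 10 after Mt1, 4 were. The share of all protein-coding genes that are in the table was not determined, so these counts do not show a local cluster. Nup93, a nuclear pore component and the direct neighbour of Mt1, had a log2 fold change of 0.30 (limma adjusted p = 0.0272). Herpud1, a gene of the endoplasmic reticulum stress response, had 0.21 (limma adjusted p = 0.0237) and Cpne2, a copine, 0.36 (limma adjusted p = 0.0267). Each was smaller than that of Mt2, but that of Cpne2 was larger than the 0.32 of Mt1 and that of Nup93 was close to it. Pllp, a myelin proteolipid gene, had -0.30 (limma adjusted p = 0.0122). The calls of Nup93, Herpud1 and Cpne2 were lost when some single libraries were left out.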
